A study of Mus musculus with 2 samples.

Results

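Bone morphogenetic proteins (BMPs) are secreted growth factors that were named for their ability to induce cartilage and bone. They bind pairs of type I and type II receptor kinases on the target cell, which phosphorylate Smad1, Smad5 and Smad9, and the activated Smads turn on early target genes such as those of the Id family. Secreted antagonists hold the ligands away from their receptors. In a healing fracture, a soft cartilage callus forms first, its chondrocytes enlarge and switch on type X collagen (Col10a1), and bone then takes the place of the cartilage, a sequence called endochondral ossification. BMP2 is known for its need in the start of fracture repair.

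The 10 genes described here were chosen by name and span the roles of this pathway: the ligands Bmp2, Bmp4, Bmp6 and Bmp7, the type I receptor Bmpr1a and the type II receptor Bmpr2, the antagonists Grem1 (gremlin 1) and Chrdl2 (chordin-like 2), and the target genes Id1 and Id3, which encode inhibitors of basic helix-loop-helix transcription factors. All 10 were found among the 32285 genes of both count matrices. Another 54 genes of the pathway were counted beside them. Both lists were chosen with earlier results of these data known, so counts of called genes in them are a description.

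Single-cell RNA-seq was performed on callus, the repair tissue of a femoral fracture, from wild-type mice, given in the study's methods as 12-week-old male C57BL/6J animals with a transverse mid-femoral fracture held by a needle in the marrow cavity. The study sampled callus at 10 dpf (days post-fracture, n = 5 mice) and 20 dpf (n = 5 mice), but the labels of the libraries, MGJ and MGJ2, give neither library a day and do not separate the mice. The values of MGJ and MGJ2 are therefore given side by side, each comparison was made between cell classes within a library, and no comparison between the libraries was made. With 1 library of each kind and no sample replicates there is no p-value, and cells of 1 library are not replicates. All intervals are 95% intervals that cover counting error only.

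MGJ held 135304426 UMIs (unique molecular identifiers, 1 per captured RNA molecule) and MGJ2 held 61130834. After filtering, 12947 cells of MGJ (median 5531 UMIs) and 7568 cells of MGJ2 (median 4920 UMIs) were used, and the libraries shared 19 cell barcodes. Levels are given as CPM, the summed UMIs of a gene in a class for every 1000000 UMIs of all genes there. Cell classes were named from marker genes and end in "-like". The composition of the libraries differed: chondrocyte-like cells made up 20.5% of the kept cells in MGJ (2654 cells) and 1.85% in MGJ2 (140 cells), while MGJ held 1255 fibroblast-like cells and MGJ2 held 6. Chondrocyte-like cells carried Col2a1, the main collagen of cartilage, at 53440 CPM in MGJ and 43993 CPM in MGJ2. Cartilage RNA also appeared in cells of other classes: 83.1% of neutrophil-like cells of MGJ and 19.3% of those of MGJ2 held a Col2a1 UMI. In MGJ, 3002 cells were left unnamed, with a Col2a1 level of 20443 CPM. They include 262 cells set aside from the chondrocyte-like clusters because neutrophil genes led them.

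Genes were located on GRCm38 in the GENCODE M21 annotation, in which all 10 are protein-coding. Bmp2 (ENSMUSG00000027358) lies at chr2:133552159-133562885 on the plus strand, and chromosome 2 also carries Bmp7 (ENSMUSG00000008999, chr2:172868012-172940321, minus), Grem1 (ENSMUSG00000074934, chr2:113746164-113758646, minus) and Id1 (ENSMUSG00000042745, chr2:152736251-152737410, plus). Bmp4 (ENSMUSG00000021835, chr14:46383520-46390669, minus) and Bmpr1a (ENSMUSG00000021796, chr14:34410734-34503341, minus) lie on chromosome 14. Bmp6 (ENSMUSG00000039004) lies at chr13:38345107-38500302 (plus), Bmpr2 (ENSMUSG00000067336) at chr1:59763400-59879014 (plus), Chrdl2 (ENSMUSG00000030732) at chr7:100006172-100034728 (plus) and Id3 (ENSMUSG00000007872) at chr4:136143497-136145755 (plus). UMIs were counted per gene, so the counts do not show which part of a gene a read came from.

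**Figure D1:**
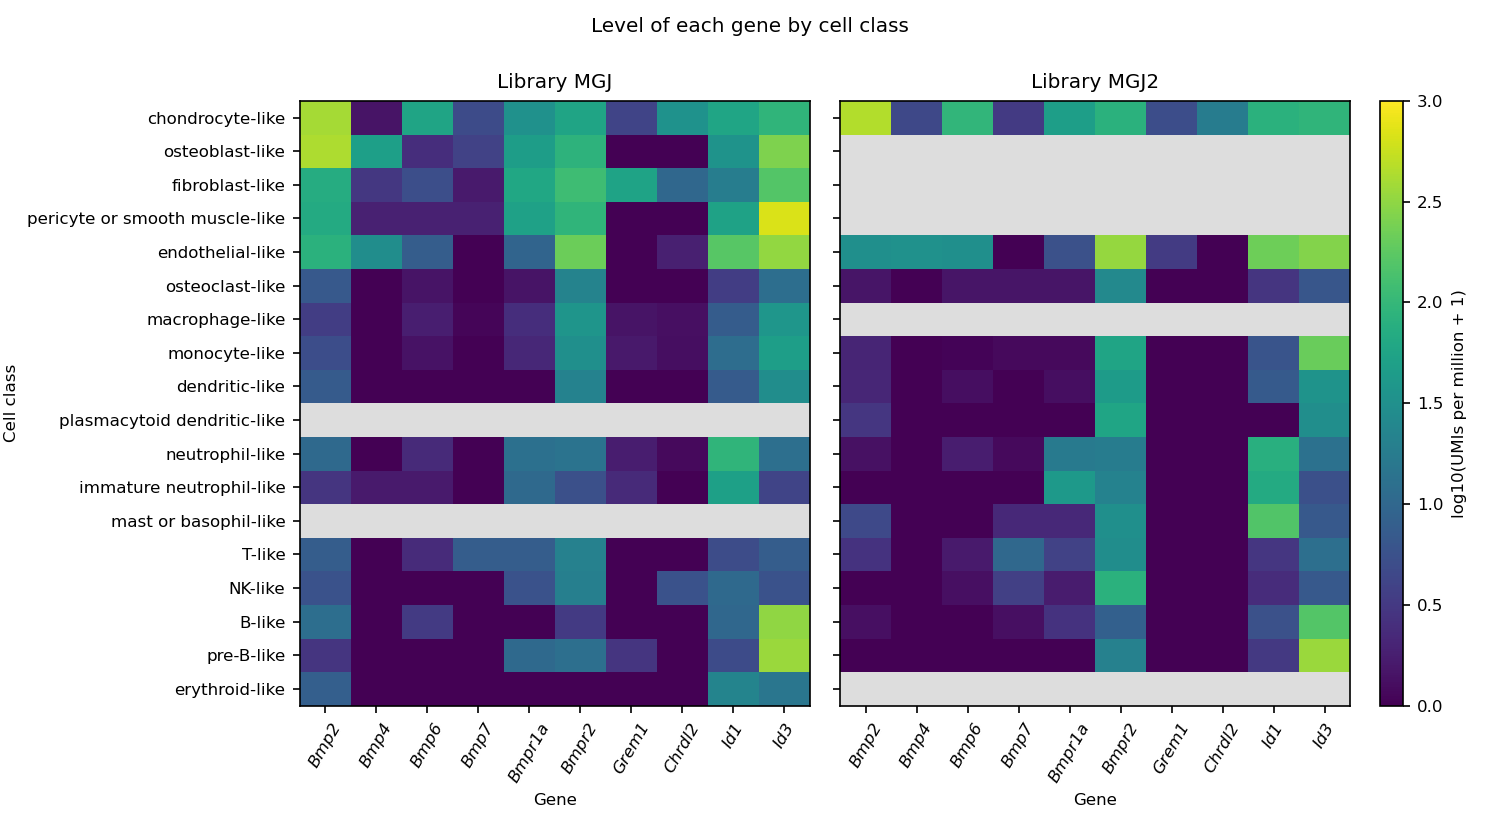
Level of the 10 genes (columns) in each cell class (rows) of MGJ (left) and MGJ2 (right), as log10(CPM + 1); grey rows mark classes below the minimum number of cells (50, or 30 for osteoblast-like cells). Among classes with 50 cells or more, Bmp2, Bmp6 and Chrdl2 peak in chondrocyte-like cells of MGJ and of MGJ2, and Bmpr2 and Id1 peak in endothelial-like cells.

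Ligands were found in different classes. The orders of classes given here and for the other members cover named classes of at least 50 cells, which leaves out the osteoblast-like cells (37 in MGJ and 8 in MGJ2), whose Bmp2 level was 428 CPM in MGJ and 658 CPM in MGJ2. Bmp2, the ligand most tied to fracture repair, peaked in the chondrocyte-like class, at 389 CPM (interval 384 to 395, 21509 UMIs) in MGJ and 450 CPM (429 to 471, 1835 UMIs) in MGJ2. The next class in both libraries was endothelial-like, at 81.6 CPM in MGJ and 30.01 CPM in MGJ2, so the leading class was 4.77 times (4.14 to 5.52) and 14.985 times (8.74 to 28.2) above it. In MGJ, endothelial-like, fibroblast-like (70.7 CPM) and pericyte or smooth muscle-like cells (67.2 CPM) were not told apart by their intervals. Chondrocyte-like cells held 82.4% of all Bmp2 UMIs of MGJ, against 44.0% of the UMIs of all genes, and 80.6% of those of MGJ2, against 7.06%.

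Bmp6, a ligand of the same family, followed this order. Its level in chondrocyte-like cells was 55.8 CPM (53.9 to 57.8) in MGJ and 93.9 CPM (84.7 to 104) in MGJ2, above endothelial-like cells at 6.66 CPM (16 UMIs) and 30.01 CPM (13 UMIs). The ratio to that next class was 8.38 (5.15 to 14.7) in MGJ and 3.13 (1.81 to 5.93) in MGJ2.

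Bmp4 had another distribution and was scarce, with 180 UMIs in all kept cells of MGJ and 42 in MGJ2. Among classes of at least 50 cells it was highest in endothelial-like cells, at 28.7 CPM (22.4 to 36.4, 69 UMIs) in MGJ and 32.3 CPM (17.7 to 54.2, 14 UMIs) in MGJ2. Chondrocyte-like cells held it at 0.434 CPM in MGJ and 3.43 CPM in MGJ2. The small osteoblast-like groups, with 37 cells in MGJ and 8 in MGJ2, held it at 48.4 CPM (33.3 to 68.0, 33 UMIs) and 45.1 CPM (21.6 to 82.9, 10 UMIs).

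Bmp7 was low in every class. Its highest level was in T-like cells, at 6.58 CPM (2.14 to 15.4) on 5 UMIs in MGJ and 9.32 CPM (6.72 to 12.6) on 42 UMIs in MGJ2. In MGJ the interval did not separate them from the chondrocyte-like class (3.87 CPM, 214 UMIs; ratio 1.70, interval 0.546 to 4.03), whereas in MGJ2 it was 3.40 times (1.58 to 8.38) above the next class, NK-like cells at 2.74 CPM.

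The receptors were broader. Bmpr2, which pairs with the type I receptors, was highest in endothelial-like cells, at 212 CPM (194 to 232) in MGJ and 335 CPM (282 to 394) in MGJ2. In MGJ, fibroblast-like (117 CPM), pericyte or smooth muscle-like (90.0 CPM) and chondrocyte-like cells (55.2 CPM) followed in steps that their intervals told apart. In MGJ2, chondrocyte-like (82.1 CPM) and NK-like cells (80.9 CPM) came next and were not told apart.

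Bmpr1a, the type I receptor also called ALK3, was shared by the stromal classes in MGJ, at 60.2 CPM in fibroblast-like and 50.7 CPM in pericyte or smooth muscle-like cells (ratio 1.19, interval 0.914 to 1.58), with chondrocyte-like cells below them at 31.6 CPM. In MGJ2, chondrocyte-like cells at 47.1 CPM (192 UMIs) and immature neutrophil-like cells at 41.2 CPM (104 UMIs) stood together at the top (ratio 1.14, interval 0.894 to 1.46). The same immature neutrophil-like class held 9.52 CPM in MGJ (15 UMIs).

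The antagonists separated by class. Grem1, a secreted protein that binds BMP2 and BMP4, was almost all in fibroblast-like cells of MGJ, at 53.8 CPM (50.7 to 56.9) with 85.3% of the library's Grem1 UMIs, against 3.08 CPM in chondrocyte-like cells. In MGJ2, where fibroblast-like cells numbered 6, Grem1 totalled 59 UMIs in the kept cells, of which 17 were in chondrocyte-like cells (4.17 CPM) and 37 in 1 unnamed cluster of 51 cells.

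Chrdl2, a chordin-related antagonist, peaked in the chondrocyte-like class, at 32.6 CPM (31.1 to 34.1) in MGJ and 17.4 CPM (13.6 to 21.9) in MGJ2. In MGJ, fibroblast-like cells came next at 9.13 CPM (ratio 3.57, interval 3.08 to 4.16). In MGJ2 no other class of at least 50 named cells held a Chrdl2 UMI.

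The Id genes reached their highest levels outside the cartilage. Id1 was highest in endothelial-like cells, at 163 CPM (147 to 180) in MGJ and 219 CPM (177 to 268) in MGJ2, and was next in neutrophil-like cells of MGJ (89.7 CPM) and in mast or basophil-like cells of MGJ2 (153 CPM). Chondrocyte-like cells held 56.9 and 81.8 CPM. Id3 led in pericyte or smooth muscle-like cells of MGJ, at 677 CPM (630 to 726), and in pre-B-like cells of MGJ2 at 356 CPM, a class that held 355 CPM in MGJ. Endothelial-like cells carried Id3 at 323 and 277 CPM and chondrocyte-like cells at 90.7 and 89.9 CPM. Monocyte-like cells held Id3 at 46.8 CPM in MGJ and 205 CPM in MGJ2, and in MGJ2 they held 55.9% of all its UMIs.

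Free RNA in the droplets can place a UMI in a cell that does not make the transcript, so each gene was set beside Col2a1. In MGJ, chondrocyte-like cells held 7.29 Bmp2 UMIs per 1000 Col2a1 UMIs and neutrophil-like cells held 11.9 on 51 Bmp2 UMIs. Fibroblast-like cells held 64.4, pericyte or smooth muscle-like cells 177 and endothelial-like cells 228 Bmp2 UMIs per 1000 Col2a1 UMIs, above both. For Id1, neutrophil-like cells held 113 UMIs per 1000 Col2a1 UMIs in MGJ and 887 in MGJ2, against 1.07 and 1.86 in chondrocyte-like cells. For Bmpr1a, neutrophil-like cells held 14.98 in MGJ and 188 in MGJ2, against 0.591 and 1.07.

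Shares of cells were compared among cells of at least 2000 UMIs, each thinned to 2000 UMIs. The reason was that chondrocyte-like cells were deeper (median 20577 UMIs in MGJ and 28313 in MGJ2) than neutrophil-like cells (1971 and 2356), a class that should lack the cartilage ligands. Only 1083 of 2219 neutrophil-like cells of MGJ and 1402 of 1990 of MGJ2 were deep enough, so their shares describe the deeper cells of that class. In MGJ, 30.8% of chondrocyte-like cells kept a Bmp2 UMI (803 of 2609, interval 29.0 to 32.6), as did 1.66% of neutrophil-like cells (18 of 1083). Without thinning, 59.6% of all chondrocyte-like cells of MGJ held one. In MGJ2 the shares were 41.7% (58 of 139, interval 33.4 to 50.4) and 0 of 1402 neutrophil-like cells. For Bmp6 the chondrocyte-like share was 9.58% in MGJ and 15.8% in MGJ2, against 0 of 1083 and 0.285% of neutrophil-like cells. For Chrdl2 it was 5.21% and 2.16%, against 0.0923% and 0 of 1402. Id1 showed no such gap: 8.43% of chondrocyte-like and 10.7% of neutrophil-like cells held it in MGJ, and 14.4% and 10.6% in MGJ2.

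To ask which members set the cartilage apart, chondrocyte-like cells were compared with all other kept cells of the library. A gene was called higher when its ratio of CPM was at least 2 and lower when it was at most 0.5, with an interval that excludes 1 and at least 50 UMIs over both sides. In MGJ, 4 of 10 members were higher (Bmp2, Bmp6, Bmp7, Chrdl2) and 2 were lower (Bmp4, Grem1), where 13.8% of 14641 genes were higher and 25.2% were lower. In MGJ2, 7 of the 9 members with enough UMIs were higher (Bmp2, Bmp6, Bmpr1a, Bmpr2, Grem1, Chrdl2, Id1) and none was lower, where 19.9% of 13056 genes were higher and 30.9% were lower. The median ratio of all 10 members, Bmp4 of MGJ2 with too few UMIs included, was 1.38 in MGJ and 5.96 in MGJ2. Over all genes with at least 50 UMIs and a count on both sides it was 0.893 and 0.824.

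Bmp2 stood at 389 CPM in chondrocyte-like against 65.4 CPM in other cells of MGJ, a ratio of 5.96 (5.77 to 6.15), and at 450 against 8.23 CPM in MGJ2, a ratio of 54.7 (49.2 to 60.8). Bmp6 gave ratios of 8.06 (7.32 to 8.89) and 70.0 (54.3 to 91.4), and Chrdl2 gave 5.58 (5.01 to 6.22) and 62.3 (35.4 to 117). The other cells of MGJ2 were mostly leukocytes, and those of MGJ held fibroblast-like cells, so the denominators of the libraries differ in kind. Unnamed cells held much of what Bmp2, Bmp6 and Chrdl2 had outside the chondrocyte-like class. In MGJ it was 2352 of 4596 UMIs for Bmp2, 355 of 487 for Bmp6 and 204 of 411 for Chrdl2. In MGJ2 it was 234 of 442, 48 of 72 and 15 of 15. The unnamed cells include a sub-cluster set aside from the chondrocyte-like clusters because neutrophil genes led it (262 cells in MGJ and 11 in MGJ2). The receptors and Grem1 had unlike ratios in the libraries: Bmpr1a had a ratio of 1.26 in MGJ and 7.57 in MGJ2, Bmpr2 had 0.887 and 2.03, and Grem1 had 0.182 (0.154 to 0.214) and 5.33 (2.84 to 9.56). Bmp4 had a ratio of 0.196 (0.122 to 0.302) in MGJ and of 6.58 (3.20 to 12.9) in MGJ2, the latter on 14 against 28 UMIs. The MGJ call for Bmp4 ended with at most 10% mitochondrial UMIs (0.520) or at least 500 genes (0.887), and that for Grem1 in MGJ2 ended with the first of these filters (1.02). Bmpr2 in MGJ2 fell under the limit in 4 alternatives, with a lowest ratio of 1.80. Bmp7 had a ratio of 7.57 (5.30 to 11.1) in MGJ and of 2.04 (0.890 to 4.15) in MGJ2, where it was not called. Id3 had ratios of 0.915 and 0.824, but 2.18 in MGJ2 with at least 500 genes.

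The ratios of Bmp2 and Bmp6 changed with the clustering and the filters, and the part of the Col10a1-rich cells in this was not tested. With finer clustering (Leiden resolution 2), the class held 72 cells with at least 10000 CPM of Col10a1 in MGJ, against 487 in the main clustering, and the Bmp2 ratio was 1.18 in MGJ and 1.79 in MGJ2; with the cells of highest doublet score removed (41 such cells) it was 1.17 and 1.63. The Bmp6 ratio was then 1.15 and 1.13 in MGJ and 5.07 and 6.66 in MGJ2, and it was 1.90 in MGJ with at least 500 genes, when 274 cells of the top range were in the class. At resolution 2 the kept cells were the same, and 221 cells of MGJ and 50 of MGJ2 were named osteoblast-like, against 37 and 8. With each cell named by its own marker score, Bmp2 gave 10.2 in MGJ and 36.9 in MGJ2. Over all alternatives, the Bmp2 ratio was between 1.17 and 12.5 in MGJ and between 1.63 and 344 in MGJ2. That of Bmp6 was between 1.13 and 26.5 in MGJ and between 5.07 and 178 in MGJ2.

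**Figure D2:**
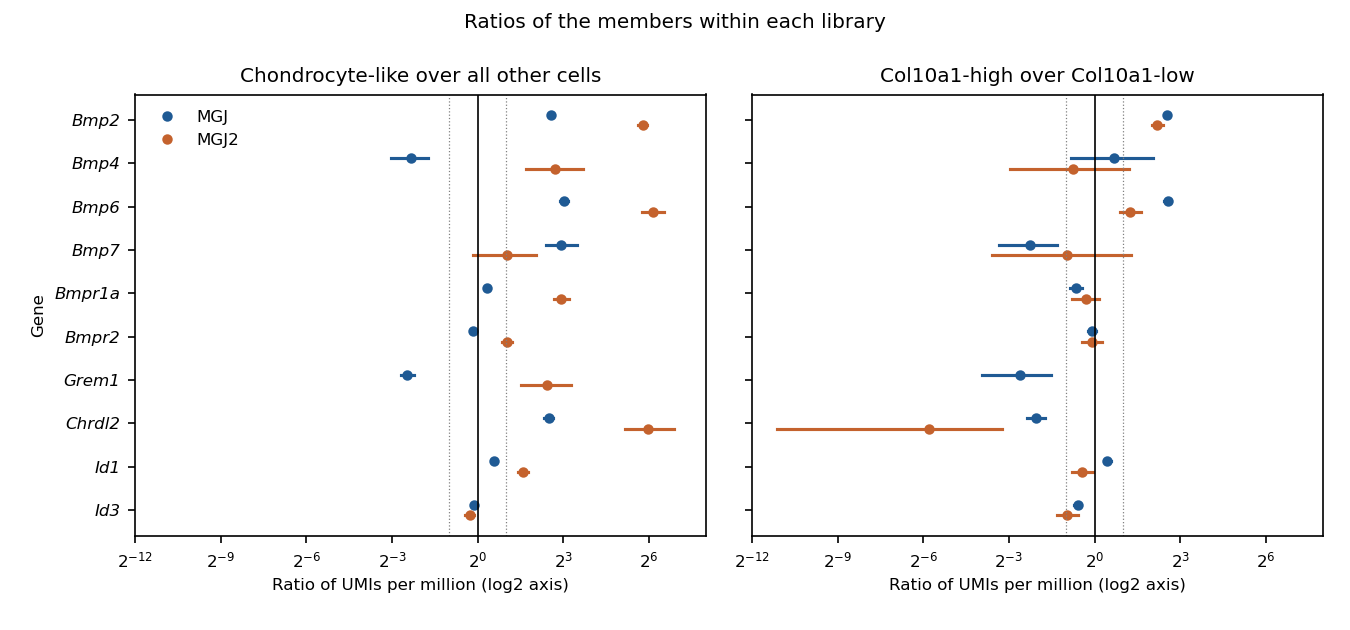
Ratio of CPM (log2 axis) of each gene in chondrocyte-like over all other cells (left) and in Col10a1-high over Col10a1-low chondrocyte-like cells (right), with points for MGJ (blue) and MGJ2 (orange) and lines for the 95% interval of counting error; dotted lines mark ratios of 0.5 and 2. Bmp2 and Bmp6 lie above 2 in both panels and both libraries, Chrdl2 lies above 2 on the left and below 0.5 on the right, and Grem1 in MGJ2 is left out on the right because 1 side held no UMI.

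Chondrocyte-like cells were then split by their own Col10a1 level, as a measure of how far they had gone toward hypertrophy: low (under 1000 CPM), moderate (1000 to under 10000) and high (10000 or more). These are ranges of 1 gene and not cell types. MGJ had 1831 low, 336 moderate and 487 high cells, with 54 cells within a factor of 1.2 of the lower limit and 57 of the upper limit. MGJ2 had 62, 27 and 51 cells, with 5 near each limit. Depth was alike on both sides, with median UMIs of 20070 in low and 21127 in high cells of MGJ and 28313 and 29186 in MGJ2.

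Bmp2 and Bmp6 were higher in Col10a1-high cells, and Chrdl2 was lower, in both libraries. In MGJ, 2 of the 9 members with enough UMIs were higher (Bmp2, Bmp6) and 3 were lower (Bmp7, Grem1, Chrdl2), where 7.74% of 12093 genes were higher and 11.1% were lower. In MGJ2, 2 of 7 were higher (Bmp2, Bmp6) and 1 was lower (Chrdl2), where 6.73% of 5918 genes were higher and 9.16% were lower. The median ratio of all 10 members, those with too few UMIs included, was 0.805 in MGJ and 0.669 in MGJ2. Over all genes with at least 50 UMIs and a count on both sides it was 0.952 and 0.968. The member median of MGJ2 thus takes in Grem1 (0 against 17 UMIs), Bmp4 (4 against 7) and Bmp7 (3 against 6).

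Bmp2 stood at 175, 583 and 1024 CPM in low, moderate and high cells of MGJ and at 167, 398 and 766 CPM in those of MGJ2. The high range was 5.85 times (5.67 to 6.03) above the low range in MGJ and 4.60 times (4.04 to 5.25) in MGJ2. Bmp6 stepped up in the same order, at 25.0, 83.1 and 148 CPM in MGJ (ratio 5.92, interval 5.45 to 6.43) and at 54.8, 104 and 130 CPM in MGJ2 (ratio 2.37, interval 1.85 to 3.06). In every alternative that gave a value, the Bmp2 ratio was between 3.48 and 7.86 in MGJ and between 2.90 and 7.72 in MGJ2, and that of Bmp6 was between 3.51 and 7.26 and between 2.24 and 8.74.

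Chrdl2 was lower in Col10a1-high cells of both libraries and Grem1 in those of MGJ. Chrdl2 stood at 36.6 CPM in low, 44.3 in moderate and 8.88 in high cells of MGJ (ratio of high to low 0.243, interval 0.194 to 0.301), and at 33.6, 17.5 and 0.610 CPM in those of MGJ2, the last on 1 UMI (ratio 0.0182, interval 0.000452 to 0.105). In MGJ the drop therefore lay between the moderate and the high range. It was not seen with finer clustering (ratio 0.894) or with the highest doublet scores removed (1.11), when the high range held 72 and 41 cells. Grem1 had 155 UMIs in low cells (4.17 CPM) and 7 in high cells (0.691 CPM) of MGJ, a ratio of 0.166 (0.0656 to 0.350). In MGJ2, with too few UMIs for a call, it had 17 in low cells (10.0 CPM) and 0 in high cells, which allows a level of up to 1.83 CPM.

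Bmp7 was lower in high cells of MGJ, at 0.987 against 4.68 CPM (ratio 0.211, interval 0.0994 to 0.397), and its 9 UMIs in MGJ2 were too few to compare. The receptors did not pass in either library: Bmpr1a had ratios of 0.635 (0.549 to 0.731) and 0.806 (0.581 to 1.11), and Bmpr2 had 0.945 (0.857 to 1.04) and 0.944 (0.741 to 1.201). Among the targets, Id1 had ratios of 1.36 (1.25 to 1.48) in MGJ and 0.746 (0.577 to 0.961) in MGJ2, and Id3 had 0.666 (0.613 to 0.723) and 0.518 (0.403 to 0.662), all short of the 2-fold limit. In MGJ, Id1 was 0.857 with the highest doublet scores removed and 3.73 when sub-clusters took the place of the limits, and Id3 was 0.498 and 1.92, so neither target kept a direction there. In MGJ2, Id3 passed the limit in 4 of 10 alternatives, with ratios down to 0.191.

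**Figure D3:**
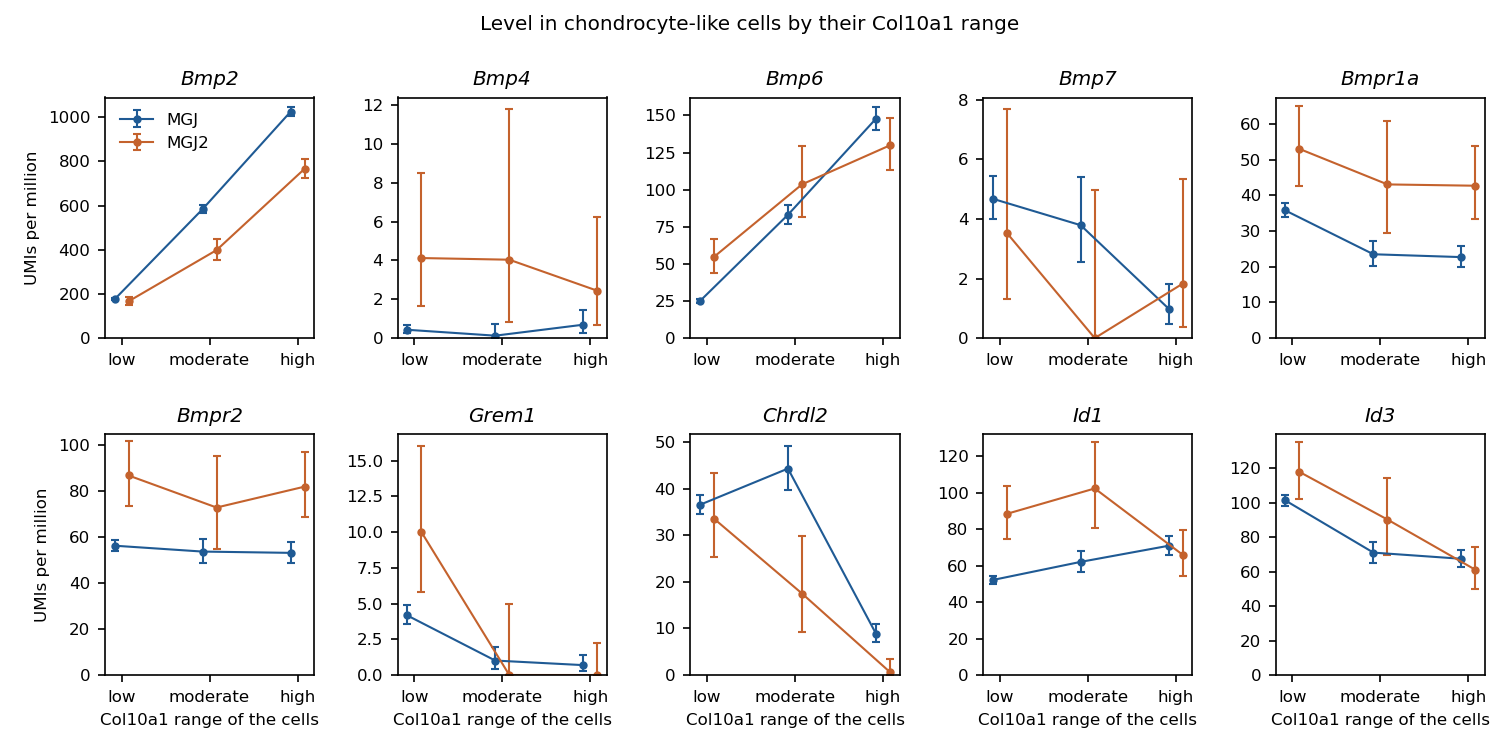
CPM of each gene (vertical axes from 0, scaled per gene) in chondrocyte-like cells of the low, moderate and high Col10a1 range, for MGJ (blue) and MGJ2 (orange), with 95% Poisson intervals as bars. Bmp2 and Bmp6 step up from low to high in both libraries, whereas Bmpr2 is nearly level and Chrdl2 is lowest in the high range.

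Within the chondrocyte-like cells, sub-clusters made without any BMP pathway gene held the members in different places. These values are a description, since clusters and genes come from the same cells. In MGJ, the sub-cluster led by Col10a1 and Ihh (520 cells) held Bmp2 at 972 CPM (953 to 991) and Bmp6 at 142 CPM (135 to 149), and it also held Ihh, the hedgehog ligand of prehypertrophic cartilage, at 259 CPM. The Nos2-led sub-cluster (581 cells in MGJ) came next for Bmp2, at 499 CPM. The 74 cells of the Col10a1-led sub-cluster in MGJ2 held Bmp2 at 675 CPM and Bmp6 at 123 CPM. A sub-cluster led by Espn and Cdsn (316 cells in MGJ) held Chrdl2 at 147 CPM (137 to 158), where Chrdl2 is itself among the leading genes, with 804 of the 1801 Chrdl2 UMIs of the chondrocyte-like cells, and its 3 cells in MGJ2 held 16 Chrdl2 UMIs.

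The Id genes had yet another peak. A sub-cluster led by Slc40a1 and Mme, with Ogn and Pdgfrb among its leading genes (362 cells in MGJ), held Id3 at 215 CPM (203 to 228) and Id1 at 115 CPM (106 to 124). Its 31 cells in MGJ2 held Id3 at 198 CPM and Id1 at 117 CPM. Bmp2 was low there, at 130 CPM in MGJ and 87.5 CPM in MGJ2, while Bmpr1a was at its highest among the sub-clusters of MGJ with 51.8 CPM. The Col10a1-led sub-cluster was close to it in Id1 (104 CPM in MGJ and 97.2 CPM in MGJ2) but not in Id3 (90.1 and 93.9 CPM).

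**Figure D4:**
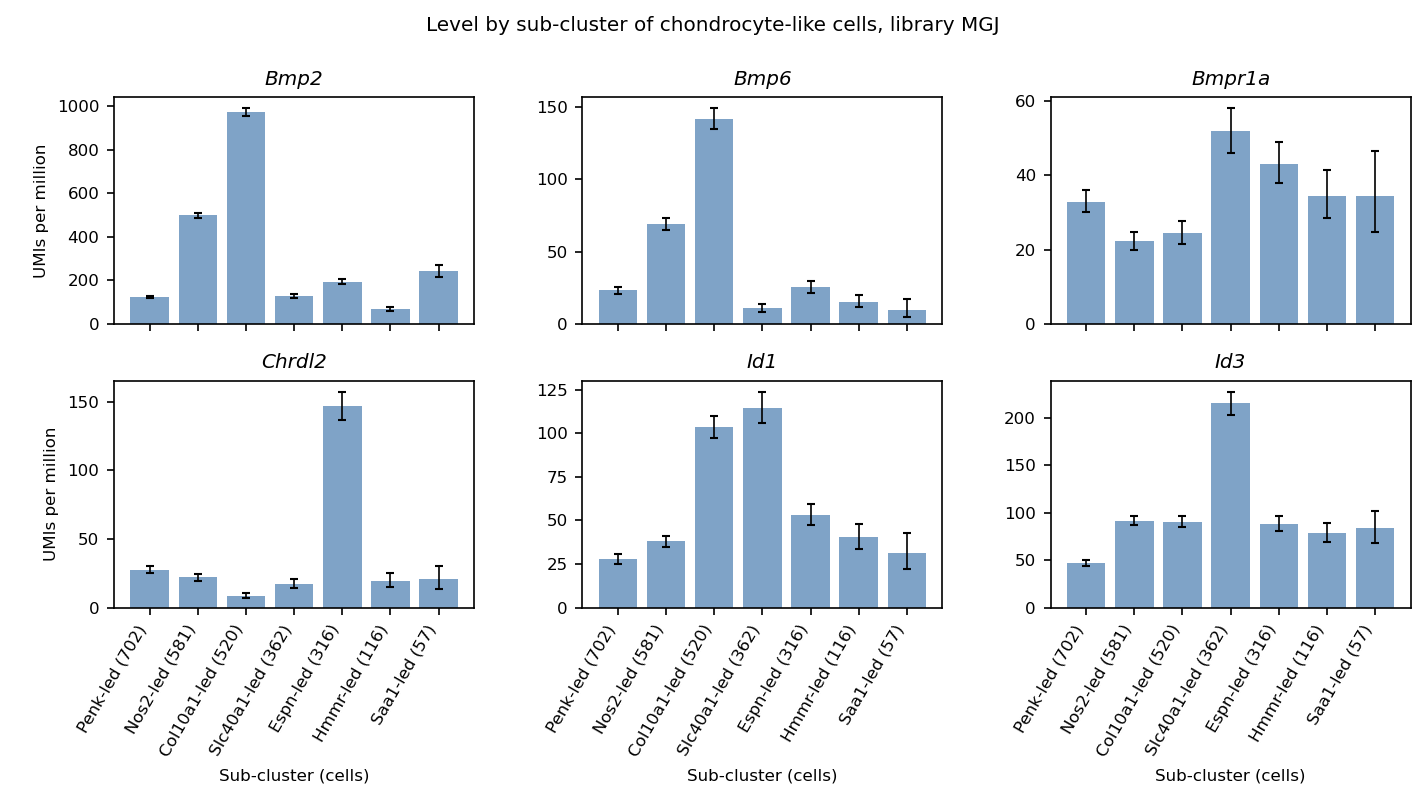
CPM (bars from 0) of 6 of the genes in the sub-clusters of chondrocyte-like cells of MGJ, named by a leading gene with the number of cells, with 95% Poisson intervals. Bmp2 and Bmp6 peak in the Col10a1-led sub-cluster, Chrdl2 in the Espn-led one and Id3 in the Slc40a1-led one, at 972, 142, 147 and 215 CPM.

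Osteoblast-like cells, the bone-forming cells, were 37 cells in MGJ and were compared with chondrocyte-like cells there only. They held Bglap (osteocalcin) at 3526 CPM, Ifitm5 at 760 CPM and Col1a1 at 53786 CPM, but also Col2a1 at 5474 CPM, and the part of this cartilage RNA in their values was not tested. Bmp4 and Id3 were higher and Bmp6 and Chrdl2 were lower (2 of 10 in each direction), where 7.67% of 12409 genes were higher and 9.19% were lower. Bmp4 stood at 48.4 against 0.434 CPM (33 and 24 UMIs), a ratio of 111 (63.9 to 197). Id3 stood at 260 against 90.7 CPM, a ratio of 2.86 (2.45 to 3.33). Bmp6 was counted once (1.47 against 55.8 CPM), and Chrdl2 not at all, which allows up to 4.40 CPM against 32.6 in chondrocyte-like cells. Bmp2 did not pass the 2-fold limit, at 428 against 389 CPM (ratio 1.10, interval 0.977 to 1.23). The 8 osteoblast-like cells of MGJ2 held Bmp2 at 658 CPM, Bmp4 at 45.1 CPM and Id3 at 428 CPM, with no UMI of Bmp6 or Chrdl2. The Bmp4 ratio was between 29.4 and 130.2 in the 6 alternatives with a value, while Bmp2 had 0.503 and Chrdl2 had 0.609 with doublet calls kept, when 501 cells were named osteoblast-like. With Leiden resolution 2 the class held 221 cells.

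Fibroblast-like cells of MGJ held more Grem1 and Bmpr2, and less Bmp2 and Bmp6, than chondrocyte-like cells. Compared with chondrocyte-like cells, 3 of 10 members were higher (Bmp4, Bmpr2, Grem1) and 5 were lower (Bmp2, Bmp6, Bmp7, Chrdl2, Id1), where 20.0% of 13250 genes were higher and 11.2% were lower. The median ratio of the members was 1.01, beside 1.19 over all genes. Grem1 was 17.5 times higher (14.9 to 20.6) and Bmpr2 2.12 times (2.01 to 2.23), whereas Bmpr1a had a ratio of 1.91 (1.77 to 2.05). Bmp4 stood at 2.09 against 0.434 CPM (45 and 24 UMIs), a ratio of 4.80 (2.86 to 8.24). Bmp2 had a ratio of 0.182 (0.172 to 0.191), Bmp6 of 0.0764 (0.0614 to 0.0940), Bmp7 of 0.167 (0.0900 to 0.287), Chrdl2 of 0.280 (0.241 to 0.325) and Id1 of 0.311 (0.279 to 0.346). The targets parted here, since Id3 had a ratio of 1.72 (1.64 to 1.79). The Bmpr2 ratio was 1.93 with at most 10% mitochondrial UMIs, under the limit, and the Bmp4 ratio was 1.56 with at least 500 genes.

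Of the 54 other genes of the pathway, 47 in MGJ and 37 in MGJ2 had enough UMIs for the comparison of chondrocyte-like with all other cells. In MGJ, 14 were higher and 11 lower, and in MGJ2, 25 were higher and 5 lower, with a median ratio of 1.17 and 4.70 over the list. Over all genes, 13.8% were higher and 25.2% lower in MGJ, and 19.9% and 30.9% in MGJ2, so the count of lower genes in MGJ was near the share of all genes. Ligands called higher in both libraries were Gdf5, a factor of joint and cartilage formation (77.7 against 8.51 CPM in MGJ, 52.4 against 0.372 in MGJ2), Gdf10 (14.4 against 1.79 and 20.1 against 1.08), Bmp5 (13.3 against 4.14 and 5.64 against 0.670) and Bmp8a (8.33 against 2.03 and 24.8 against 0.968). No other receptor was higher in both, and Acvrl1 (ALK1, an endothelial type I receptor) was lower, with ratios of 0.113 and 0.130, as was Acvr2b, an activin type II receptor, with 0.335 and 0.280.

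Of the extracellular modulators, 3 were called higher in both libraries. Noggin (Nog), a BMP antagonist, stood at 26.6 against 2.72 CPM in MGJ and 49.7 against 0.186 CPM in MGJ2. Chrdl1, a relative of Chrdl2, stood at 85.1 against 14.5 and 115 against 2.51 CPM. Twsg1, which binds chordin and BMPs, stood at 131 against 48.4 and 207 against 18.3 CPM. Of the Smads and their regulators, the pseudoreceptor Bambi (ratios 3.97 and 15.5) and Pmepa1, an inhibitor of Smad signalling (2.01 and 4.46), were higher. Of the targets, the homeobox gene Dlx5 (5.74 and 27.1) and the transcription factor gene Atoh8 (5.51 and 23.4) were higher, and Id2 (0.437 and 0.364) and Hey1 (0.170 and 0.315) were lower.

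Between the Col10a1 ranges, 6 of 43 other pathway genes were higher and 12 lower in MGJ, and 4 of 25 were higher and 3 lower in MGJ2, with a median ratio of 0.825 and 1.05. The shares over all genes were 7.74% higher and 11.1% lower in MGJ, and 6.73% and 9.16% in MGJ2, the last near the share in the list. Bmp8a, Nog and Crim1, a membrane protein that binds BMPs, were higher in Col10a1-high cells of both libraries. Nog stood at 76.5 against 7.77 CPM in MGJ (ratio 9.84, interval 8.59 to 11.3) and at 72.0 against 29.4 CPM in MGJ2 (ratio 2.44, interval 1.74 to 3.47). Nog and Chrdl2, both antagonists, thus differed in opposite directions between the high and the low range. In MGJ, however, Chrdl2 was highest in the moderate range. Its drop there was not seen with finer clustering or with the highest doublet scores removed. Crim1 had ratios of 3.60 and 3.02, and Bmp8a of 9.97 and 3.16. Gdf10 (0.224 and 0.0773), Fstl1 (0.324 and 0.203) and Nbl1, an antagonist of the DAN family (0.477 and 0.319), were lower in both.

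In osteoblast-like cells of MGJ, 6 of 44 other pathway genes were higher and 10 lower than in chondrocyte-like cells, with a median ratio of 0.803, beside 7.67% higher and 9.19% lower over all genes. Among these other genes, the members left out, the highest levels of a role there were those of Bmp3 among ligands (66.0 CPM), Acvr1 among receptors (36.7 CPM), the procollagen and chordin protease Bmp1 among modulators (532 CPM) and Pmepa1 among Smad regulators (837 CPM). In fibroblast-like cells, 19 of 47 were higher and 12 lower, with a median ratio of 1.58, beside 20.0% higher and 11.2% lower over all genes. Of the receptors and co-receptors, 7 of 9 were higher there and none was lower. Again with the members left out, the highest of their role were Gdf11 (11.8 CPM), the co-receptor Tgfbr3 (67.6 CPM), Fstl1 (2097 CPM), Pmepa1 (1067 CPM) and Id2 (42.6 CPM). In endothelial-like cells, endoglin (Eng), a co-receptor for BMP9, was the highest of the other receptor genes, at 503 CPM in MGJ and 649 CPM in MGJ2.

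The genes whose levels followed each member most closely were sought over the 28 class levels of at least 50 cells, 15 in MGJ and 13 in MGJ2, among 7766 genes. The coefficients are Pearson's r of log2(CPM + 10) and are given as a description, because classes of a library share its free RNA and the class that leads decides much of r. Bmp2 was most like Enpp2 (0.979), Foxc1 (0.974) and Ccn2 (0.972). Bmp6 was most like Fgfr3 (0.966), Trpv4 (0.945) and P3h2 (0.941), and Chrdl2 like Anxa8 (0.958), Matn4 (0.952) and Chrdl1 (0.946). Bmp4 was most like Cdh5, the cadherin of endothelium (0.975), Igfbp3 (0.952) and Adgrl4 (0.931). Bmp7 was most like Trac (0.894), Cd3g (0.811) and Trdc (0.796), genes of the T cell receptor complex. Trdc was also among the leading genes of the Nos2-led sub-cluster of chondrocyte-like cells. Grem1 was most like Ogn (0.858), Igf1 (0.838) and Cthrc1 (0.824). For the receptors, Bmpr1a was nearest to Crispld2 (0.921), Tnfaip6 (0.858) and Palld (0.823), and Bmpr2 to Smad1, a Smad that BMP receptors phosphorylate (0.873), Itgb1 (0.861) and Fam91a1 (0.846). Id1 was nearest to Schip1 (0.839), Pdlim7 (0.818) and Klf7 (0.808), and Id3 to Myo1c (0.862), the B cell factor Ebf1 (0.851) and Cnn3 (0.834).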

How the data were processed

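Callus from femoral fractures of wild-type mice was digested and profiled with the 10x Genomics 3′ kit, version 3. The authors deposited raw UMI counts per gene and barcode for 2 libraries, and the file headers name Cell Ranger 4.0.0. The build was GRCm38 per the submitters' processing notes, which also name Seurat. Both libraries were left without a group, because their labels do not tell them apart.

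Barcodes with fewer than 200 genes or over 20% mitochondrial UMIs were removed (371 and 464 in MGJ, 70 and 133 in MGJ2). Doublets, barcodes with RNA of more than 1 cell, were scored with Scrublet in scanpy 1.11.5. Its automatic threshold called 0 barcodes in MGJ, so scores above 0.25 were removed in both libraries, a limit chosen after the scores were seen (513 barcodes, 3.81%, and 238, 3.05%, against expected rates of 10.8% and 6.24%), and doublets therefore remain. Both libraries were clustered together (2000 variable genes without the 64 pathway genes, 30 components, 15 neighbours, leidenalg 0.10.2 at resolution 1, and 0.5 for sub-clusters of chondrocyte-like cells). Clusters were named from 25 marker lists (score at least 1, at least 3 markers in at least 10% of cells) and left unnamed when led by markers of other classes (198 cells in MGJ and 276 in MGJ2) or, with none of their markers leading, when their UMI counts were low, which left out a cluster of 2395 and 10 cells nearest to the neutrophil list (0.32 of the median of its libraries) and 1 of 147 and 51 cells (0.201). A sub-cluster of chondrocyte-like cells whose leading genes were osteoblast markers was renamed osteoblast-like. Another, led by neutrophil genes (262 cells in MGJ and 11 in MGJ2), was set aside among the unnamed cells. These choices were made after the leading genes were seen. The stage limits follow from Col10a1 alone.

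Ratios of summed counts carry exact conditional binomial intervals, levels exact Poisson intervals and shares exact Clopper-Pearson intervals (scipy 1.17.1). Thinned shares rest on 1 random draw. A class entered a comparison with at least 30 cells and the order of levels with at least 50. A count of 0 was read as allowing 3 counts. The ratio step was tested on simulated data. The 10 members, the 54 other pathway genes and the marker lists were chosen with earlier results of these data known. Named pathway genes are those called in the same direction in both libraries (up to 5 of a role with the most UMIs) and those with the highest level of their role in 4 of the classes. The value of 1 gene that this rule names is not reported here.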

Additional observations from a re-analysis of the deposited data

Results flagged for a closer look

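Barcodes left out of the comparisons also held the members. In the 1348 barcodes of MGJ removed by the filters or as doublets, the 10 members summed to 381 CPM (interval 369 to 394, 3716 UMIs), beside 497 in the kept cells. In the 441 removed barcodes of MGJ2 they summed to 183 CPM (169 to 198, 610 UMIs), beside 243 in the kept cells. A count of 0 would have allowed at most 0.308 and 0.901 CPM in these barcodes, which no comparison uses.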

How the results depend on the processing

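Of 120 counts of members under the alternatives, 107 stayed within 1.5 times the reported count. With Leiden resolution 2, the members higher in chondrocyte-like cells of MGJ numbered 2, those lower in Col10a1-high cells of MGJ 1 and those higher in osteoblast-like cells 1. With the highest doublet scores removed (1380 and 460 barcodes at the expected rates, chosen after seeing the data), the higher members in chondrocyte-like cells numbered 2 in MGJ and 4 in MGJ2, those lower in Col10a1-high cells of MGJ numbered 1, the Bmp4 ratio of chondrocyte-like to other cells of MGJ2 was 0 and the Chrdl2 ratio of Col10a1-high to low cells of MGJ was 1.11. In both settings chondrocyte-like cells held fewer Col10a1-high cells (72 and 41 in MGJ, 1 and 0 in MGJ2), so the Col10a1 comparison gave no value in MGJ2. With at most 10% mitochondrial UMIs or at least 500 genes, 1 member was lower in chondrocyte-like cells of MGJ, and 0 and 2 members were lower in Col10a1-high cells of MGJ2. That last count was 2 with set-aside sub-clusters kept and with every cell weighted equally. With doublet calls kept, 1 member was lower in osteoblast-like cells. The cause was not tested for the filters and weights. The osteoblast-like comparison had no value with the 10% or 500-gene filter, the highest doublet scores removed or set-aside sub-clusters kept, because no class of 30 cells was named.

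Of 596 member ratios, 400 stayed within the reported interval, 194 moved beyond it and 2 were counted as reversed (above). Another 4 had no UMI in the reference class and no value. The count of 2 does not take in every ratio that crossed 1 under an alternative. Id3 in chondrocyte-like against other cells of MGJ2 went from 0.824 to as high as 2.18. Between Col10a1-high and low cells of MGJ, Id1 went from 1.36 down to 0.857 and Id3 from 0.666 up to 1.92. Leaving the 20 most abundant genes out of the totals shifted every log2 ratio of chondrocyte-like to other cells of MGJ2 by -0.17 and those of the remaining comparisons by -0.08 to 0.08. No paired analysis was possible because neither library has a group. With 1 library each, the spread between mice is not measured, and the MGJ2 ratios of Bmp4, Bmp7 and Grem1 rest on 42, 67 and 59 UMIs.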

Other observations

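An unnamed cluster led by Gm26917, with 147 cells in MGJ and 51 in MGJ2, was left without a class because of its low UMI counts (median 1021 in MGJ and 1671 in MGJ2). It was singled out after its values were seen. In MGJ2 it held Grem1 at 139.5 CPM (interval 98.2 to 192, 37 UMIs), Bmp6 at 75.4 CPM (20 UMIs) and Id3 at 1474 CPM (391 UMIs), beside the stromal chemokine Cxcl12 at 9460 CPM and the leptin receptor gene Lepr at 362 CPM. In MGJ it held 0 Grem1 UMIs (interval up to 10.6 CPM), Bmp4 at 20.2 CPM (7 UMIs) and Id3 at 410 CPM (142 UMIs), with Cxcl12 at 176 CPM and Lepr at 31.7 CPM. S100a8, a neutrophil gene, stood at 8314 CPM in its MGJ2 cells, and its part in these values was not tested.

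The 9 pericyte or smooth muscle-like cells of MGJ2, too few for the order of levels, held Id3 at 1826 CPM (231 UMIs), beside 677 CPM in the 141 cells of that class in MGJ.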
